A study of Ovis aries with 40 samples.

Results

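The amino acid transporter genes examined here are 57 genes of the 24478 in the count tables of fetal and newborn sheep lung. They are the genes whose symbols are SLC1A, SLC3A, SLC6A, SLC7A, SLC36A, SLC38A or SLC43A followed by digits, a rule that reads names alone. SLC1A held 7 of them, SLC3A 2, SLC6A 17, SLC7A 13, SLC36A 4, SLC38A 11 and SLC43A 3. *SLC7A6OS*, which carries a suffix, was left out, and the intestinal and renal neutral carriers *SLC6A18* and *SLC6A19* had no row under those symbols. A family name does not fix the substrate: the rule also took in the monoamine carriers *SLC6A2*, *SLC6A3* and *SLC6A4*, the creatine carrier *SLC6A8*, the taurine carrier *SLC6A6*, the betaine and GABA carriers *SLC6A11*, *SLC6A12* and *SLC6A13*, the nucleobase carrier *SLC43A3* and the orphan *SLC6A16*.

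Amino acids are charged or zwitterionic and cross membranes through carriers. Members of SLC1A and SLC6A are driven by the sodium gradient and can concentrate their substrates in the cell, SLC38A proteins couple sodium to glutamine and other small neutral amino acids, and most SLC36A proteins use protons. Light chains of SLC7A reach the cell surface bound to a heavy chain, *SLC3A2* or *SLC3A1*, and exchange one amino acid for another, whereas the cationic carriers of SLC7A and the SLC43A proteins work without a heavy chain. In the lung such carriers are known for feeding protein and surfactant synthesis, supplying cysteine and glutamate for glutathione, holding osmolytes such as taurine and betaine, and clearing amino acids and amines from the airspace or the blood.

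RNA came from the proximal and distal lung of American Romney sheep that were wildtype (WT) or lacked *CFTR* (CF, *CFTR*-/-), collected at gestational day 65, day 80, day 100, day 120 or term (day 147 in the labels). Each of the 20 conditions had 2 libraries, 40 in all. The CF animals were cloned by nuclear transfer from 1 line of male fetal fibroblasts in which exon 2 of *CFTR* had been targeted, and no other engineered allele or agent is given for them. WT animals were bred, and those at term were born naturally before collection, so genotype and the way the animals were made cannot be told apart. The WT libraries of day 100 in both regions all carry the same animal label, so WT day 100 may rest on 1 animal. Each fit shares its estimate of the spread over all its libraries. For WT day 100 the p-values therefore do not measure the spread between animals of that day. Another label is shared by WT day 65 replicate 2 and CF day 100 replicate 2, which differ in genotype and age.

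Counted reads ran from 24670355 to 43700012 in WT libraries before term (n = 16) and from 85773994 to 103139483 in CF libraries before term (n = 16), so before term depth and genotype cannot be told apart either. The 4 WT and 4 CF term libraries held 115937437 to 126749480 and 117316905 to 119451372 reads. Term libraries were thus deeper than all earlier ones of their genotype, by more in WT. Depth and the step from day 120 to term cannot be told apart, nor can depth and a difference between the genotypes in that step. *CFTR*, the targeted gene, was lower in both CF libraries than in both WT libraries in all 10 pairs of region and time. The labels call the tissue epithelial, yet markers of fibroblasts summed to between 3270 and 25386 CPM (normalized read counts scaled to library size) and those of endothelium to between 795 and 2036 CPM over the 40 libraries, so values are those of whole lung. In bulk tissue, fewer cells of a type and less RNA per cell cannot be told apart. The CF proximal day 120 pair stood apart: its 2 libraries differed over all genes by a root mean square of 1.63 on the log2 scale, against 0.22 to 0.76 in the other 19 pairs. This value does not tell which library of the pair is unusual.

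Compared per kilobase of gene model, as RPKM averaged over the 40 libraries, 28 of the 57 genes reached 1 RPKM and 14 stayed under 0.1. By this mean the order was led by *SLC38A2*, a sodium-coupled carrier of small neutral amino acids, at 58.7 RPKM, and *SLC3A2*, the heavy chain also known as CD98, at 35.2 RPKM. *SLC1A1*, a high-affinity carrier of glutamate, aspartate and cysteine, followed at 21.8 RPKM. Next came *SLC43A1*, a carrier of large neutral amino acids, at 20.2 RPKM, *SLC38A10* at 19.8 RPKM and the light chain *SLC7A7* at 17.4 RPKM. The glutamine exchanger *SLC1A5* reached 10.2 RPKM and its relative *SLC1A4*, a carrier of alanine, serine and cysteine, 8.50 RPKM. *SLC6A20*, a proline and imino acid carrier, had 5.80 RPKM and *SLC38A3*, a glutamine carrier, 3.47 RPKM. The order moved with stage: at term *SLC1A1* led in WT lung (73.5 RPKM proximal, 74.3 distal) and *SLC3A2* in CF lung (48.5 and 50.9), against 64.2, 52, 46.4 and 40.5 RPKM of *SLC38A2*.

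By family, SLC38A summed to 95.2 of the 269 RPKM of all 57 genes, SLC1A to 44.4, SLC3A to 35.3, SLC43A to 31.2, SLC6A to 30.0, SLC7A to 27.5 and SLC36A to 5.37. On Oar_v4.0, exons of *SLC3A1*, *SLC7A9*, *SLC38A4* and *SLC6A3* overlap those of a neighbouring gene, and the strand setting of the counting is not given in the sources used here, so counts of these 4 members are uncertain. The level map shows most SLC6A and SLC36A members dark in every condition and the SLC43A members bright, with *SLC1A1* and *SLC6A20* brightening from day 80 to term.

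**Figure D1:**
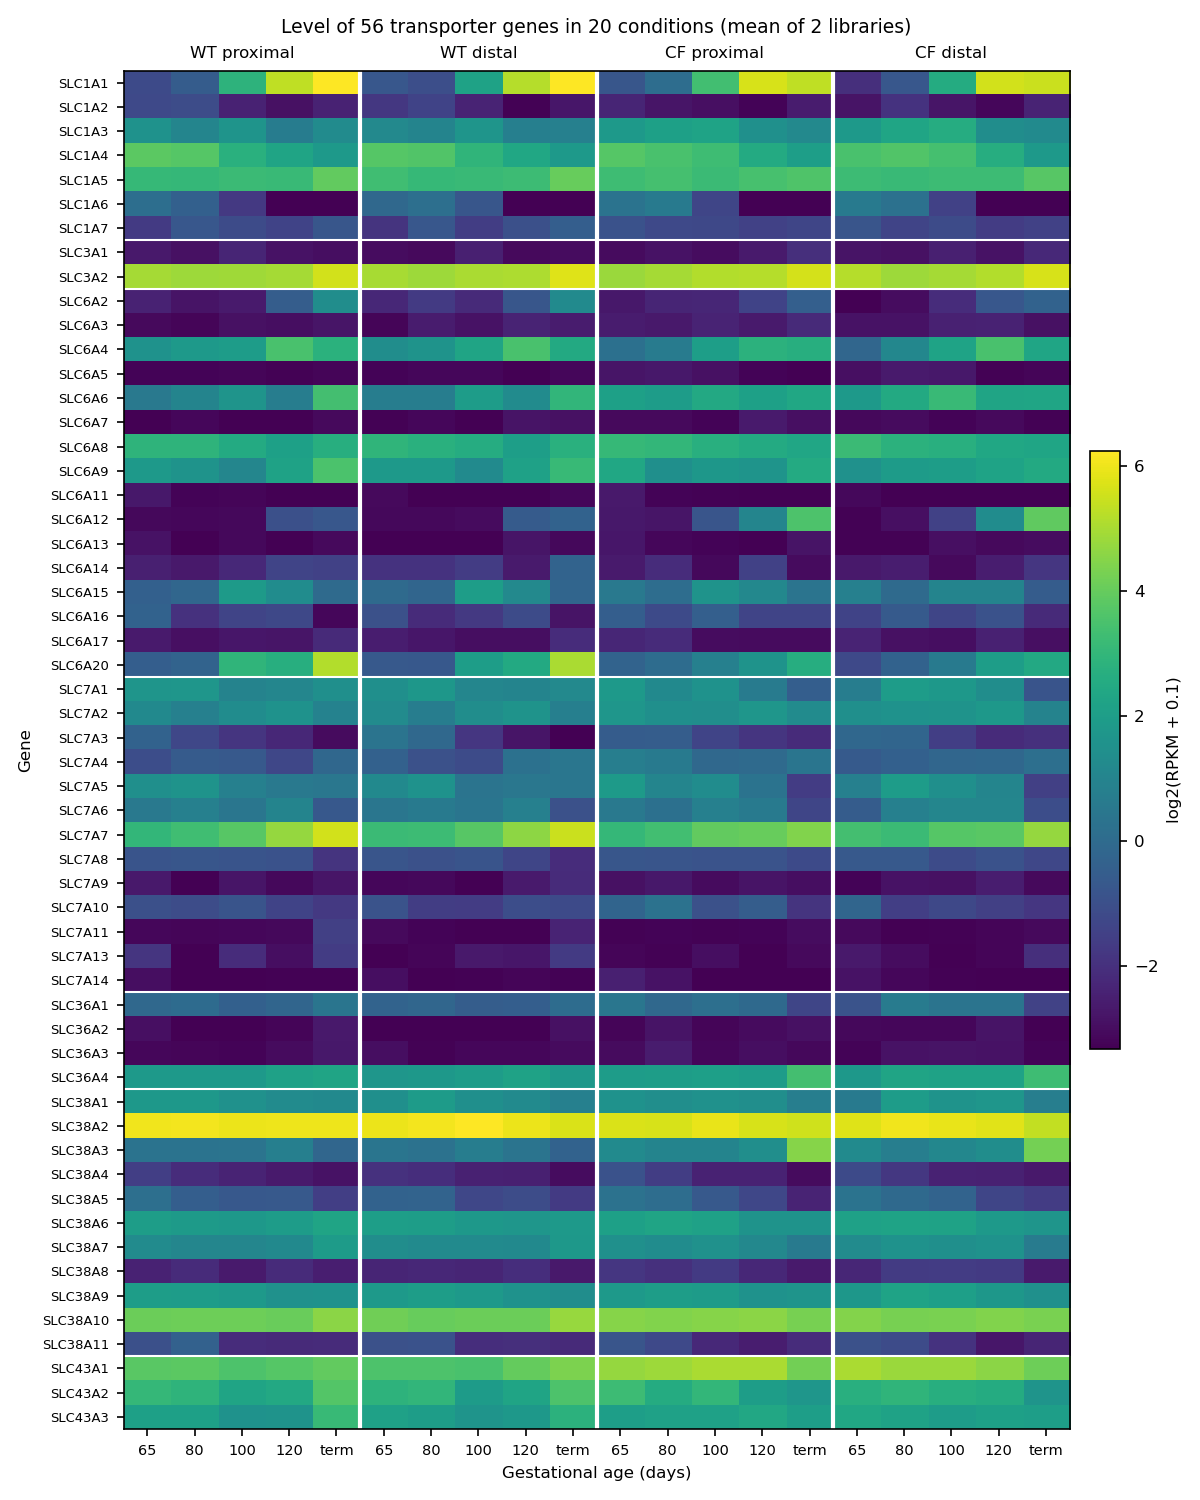
Level of 56 of the 57 genes (rows, by family) in each of the 20 conditions (columns), as the log2 of the mean RPKM of 2 libraries plus 0.1. *SLC38A2* and *SLC3A2* are bright throughout and *SLC1A1* goes from dark at day 65 to bright at day 120 and term.

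Each time course was first tested for any difference among its 5 time points with an F test in edgeR (quasi-likelihood), and p-values were adjusted over every gene in the fit. At the limit of 0.05 on the adjusted p there were 20 of 46 members tested in WT proximal lung (43.5%; all genes 40.8%), 21 of 45 in WT distal lung (46.7%; 40.4%), 4 of 52 in CF proximal lung (7.69%; 5.36%) and 18 of 53 in CF distal lung (34.0%; 33.9%). At this limit shares of members were close to those of all genes. In CF proximal lung the 4 were *SLC6A12*, *SLC1A1*, *SLC38A3* and *SLC1A6*. The count for CF proximal lung was 14 without CF proximal day 120 replicate 1, 10 without day 120 replicate 2 and 2 without day 65 replicate 1 or 2 or term replicate 2. In CF distal lung it was 10 without day 100 replicate 2 and 11 without day 80 replicate 2.

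For 2 conditions, a differentially expressed gene (DEG) was one whose adjusted p did not exceed 0.05 and whose log2 fold change was at least 0.58 in either direction. From day 65 to day 80, 0 members were DEGs by edgeR in WT proximal (0.011% of all genes), WT distal (0.0164%), CF proximal (0.0%) or CF distal lung (0.0%). An unadjusted p under 0.05 was reached by 1, 1, 0 and 11 members (all genes 5.5%, 3.99%, 1.12% and 17.4%), and DESeq2 called 0, 0, 0 and 0. From day 80 to day 100, 4 members were DEGs in WT proximal lung (1.87% of all genes) and 4 in WT distal lung (0.996%). In CF lung, edgeR called 0 in either region (0.0% and 0.0%), with 4 proximal and 7 distal members at an unadjusted p under 0.05 (all genes 3.92% and 4.04%) and 3 and 2 called by DESeq2.

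From day 100 to day 120, 4 members were DEGs in WT proximal lung (2.57% of all genes), 4 in WT distal lung (2.44%) and 3 in CF distal lung (0.928%). CF proximal lung had 0 by edgeR (0.0203%), 4 at an unadjusted p under 0.05 (all genes 7.69%) and 3 by DESeq2. The step from day 120 to term held the most calls: 14 in WT proximal lung (20.1% of all genes), 18 in WT distal lung (22.3%), 1 in CF proximal lung (0.356%) and 7 in CF distal lung (22.9%). In WT these were mostly higher, with 11 proximal (23.9% of members tested; all genes 11.3%) and 13 distal members (28.9%; 11.8%) higher, and 3 (8.78% of all genes) and 5 members (10.5%) lower. CF distal lung had 3 higher (11.5% of all genes) and 4 lower (11.4%).

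Among the SLC1A carriers, *SLC1A1* (chromosome 2, 72318327 to 72393056) rose over gestation. *SLC1A1* in WT proximal lung had 1.47 and 1.04 CPM at day 65, 1.89 and 2.48 at day 80 and 29 and 23.1 at day 100. *SLC1A1* there then had 183 and 107 CPM at day 120 and 256 and 286 at term. *SLC1A1* in WT distal lung had 2.36 and 1.32 CPM at day 65, 1.45 and 1.48 at day 80 and 13.8 and 18.8 at day 100. *SLC1A1* there then had 163 and 101 CPM at day 120 and 278 and 271 at term. Its level thus rose at each step after day 80, and the libraries of consecutive time points from day 80 on did not overlap in either region. *SLC1A1* in CF proximal lung had 2.3 and 1.27 CPM at day 65, 4.75 and 2.49 at day 80 and 46.5 and 28 at day 100. *SLC1A1* there then had 232 and 142 CPM at day 120 and 188 and 106 at term. *SLC1A1* in CF distal lung had 0.754 and 0.333 CPM at day 65, 2.66 and 1.1 at day 80 and 26.9 and 15.5 at day 100. *SLC1A1* there then had 195 and 158 CPM at day 120 and 234 and 91.7 at term. In CF lung the means were highest at day 120, although CF distal term replicate 1 lay above both CF distal libraries of day 120. Both CF term libraries lay below both WT term libraries in each region. The change of *SLC1A1* from day 120 to term was not called as different between the genotypes in either region. Alveolar markers also rose in WT proximal lung, type 2 from 662 and 1017 to 22606 and 28547 CPM and type 1 from 339.8 and 409 to 4742 and 5617 CPM between day 65 and term. In WT distal lung they went from 578 and 854 to 18208 and 26954 CPM and from 311 and 386 to 5504 and 5590 CPM, and their part in the rise of *SLC1A1* or *SLC6A20* was not tested.

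The WT steps of *SLC1A1* in proximal lung were 3.55 ± 0.30, adjusted p = 0.00151 from day 80 to day 100 (log2 fold change ± SE), 2.50 ± 0.26, adjusted p = 0.00294 to day 120 and 0.89 ± 0.24, adjusted p = 0.0257 to term. In distal lung they were 3.48 ± 0.33, adjusted p = 0.00316, 3.01 ± 0.29, adjusted p = 0.00289 and 1.04 ± 0.27, adjusted p = 0.0228. The CF distal step to day 120 was 3.08 ± 0.58, adjusted p = 0.0491, and the CF steps from day 80 to day 100 were 3.38 (adjusted p = 0.976) in proximal and 3.47 (adjusted p = 0.185) in distal lung, which DESeq2 called in both. At term CF against WT was -0.88 ± 0.41, adjusted p = 0.256 in proximal and -0.72 ± 0.46, adjusted p = 0.313 in distal lung, so that difference missed the threshold. The first 2 proximal WT steps held without any 1 library. In distal lung the first was lost without WT distal day 80 replicate 2 (adjusted p = 0.0552). The second was lost without WT distal day 100 replicate 1 (adjusted p = 0.0689). The CF distal step was lost without either CF distal library of day 65, 80, 100 or 120 (adjusted p 0.0616 to 0.476). The proximal step to term was lost without WT proximal day 120 replicate 2 or term replicate 2 (adjusted p 0.112 to 0.128) and was 1.35 without day 120 replicate 1, and the distal step to term was lost without WT distal day 120 replicate 2 or term replicate 2 (adjusted p 0.0521 to 0.122).

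*SLC1A4*, which exchanges alanine, serine and cysteine, moved the other way. *SLC1A4* in WT proximal lung had 56.6 and 55.2 CPM at day 65, 41.3 and 61.6 at day 80 and 26.1 and 26.4 at day 100. *SLC1A4* there then had 18.2 and 18.6 CPM at day 120 and 14.5 and 12.4 at term. *SLC1A4* in WT distal lung had 50.05 and 53.2 CPM at day 65, 45.2 and 51.7 at day 80 and 28.7 and 31 at day 100. *SLC1A4* there then had 20.5 and 19.9 CPM at day 120 and 13.9 and 13.2 at term. The 4 libraries of day 65 lay between 50.0 and 56.6 CPM and the 4 of term between 12.4 and 14.5 CPM. *SLC1A4* in CF proximal lung had 48.7 and 53.3 CPM at day 65, 36.1 and 51.2 at day 80 and 42.1 and 32.9 at day 100. *SLC1A4* there then had 19.4 and 25.5 CPM at day 120 and 14.2 and 17.8 at term. *SLC1A4* in CF distal lung had 42.7 and 44.6 CPM at day 65, 49 and 49.1 at day 80 and 43.8 and 38.6 at day 100. *SLC1A4* there then had 26 and 22.8 CPM at day 120 and 16 and 11.2 at term. All CF libraries of days 65 to 100 stood above those of day 120 and term. WT *SLC1A4* fell from day 80 to day 100 in proximal (log2 fold change -0.99 ± 0.18 (SE), adjusted p = 0.0284) and distal lung (-0.70 ± 0.12, adjusted p = 0.0391) and from day 120 to term in distal lung (-0.60 ± 0.12, adjusted p = 0.0101), and CF distal *SLC1A4* fell from day 120 to term (-0.85 ± 0.22, adjusted p = 0.0283). The proximal day 100 step was lost without either WT proximal library of day 100 or 120 or WT proximal day 80 replicate 2 (adjusted p 0.0509 to 0.171). The distal one was lost without either WT distal library of day 65, 80, 100 or 120 (adjusted p 0.0522 to 0.425). The WT distal step to term was lost without WT distal day 120 replicate 1 (adjusted p = 0.0668). The CF one was lost without either CF distal library of day 80 or 100, CF distal day 120 replicate 1 or term replicate 2 (adjusted p 0.0559 to 0.11). Over the whole course *SLC1A4* passed in 3 of the 4 courses (adjusted p = 9.59e-05 WT proximal, 4.98e-05 WT distal, 0.00225 CF distal and 0.0577 CF proximal lung).

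*SLC1A6*, a glutamate carrier known from the cerebellum, was read at low counts early and not at all later. *SLC1A6* lay between 0.819 and 5.58 CPM in the 16 libraries of days 65 and 80 and between 0.227 and 1.19 CPM in the 8 of day 100, and had a count of 0 in all 16 libraries of day 120 and term. Taking 3 counts per library as the floor, it was 11.2-fold (WT distal), 21.5-fold (CF proximal) and 18.8-fold (CF distal) lower at day 120 than at day 100. The WT proximal libraries of day 100 differed (0.227 and 0.676 CPM). That floor covers counting error only and takes counts as independent. By library, 69.2% to 85.8% of low counts were even numbers, so the floor may be too low and these folds too high. The fall was a DEG in 3 of the 4 courses, with adjusted p = 0.0477 in WT proximal, 0.0217 in WT distal and 0.0479 in CF distal lung, and all 4 courses passed the test over time points, of which CF proximal was lost without either CF proximal library of day 65, 100 or term (adjusted p 0.0581 to 0.092). The WT proximal step of *SLC1A6* was lost without either WT proximal library of day 65, 80, 100 or 120 (adjusted p 0.0714 to 0.209). The WT distal one was lost without either WT distal library of day 100 or 120 (adjusted p 0.104 to 0.154). The CF distal one was lost without either CF distal library of day 65, 100 or 120 (adjusted p 0.0773 to 0.253). *SLC1A3*, a glutamate carrier of glia and connective tissue, differed by genotype and passed the test over time points in CF distal lung (adjusted p = 0.0236), which was lost without CF distal day 80 replicate 2 or day 100 replicate 2 (adjusted p 0.055 to 0.0944). In WT lung before term it had 5.14 to 14 CPM (median 8.78, n = 8) in proximal and 5.94 to 14.4 CPM (median 7.54, n = 8) in distal lung, and in CF lung 8.68 to 20.4 CPM (median 14.9, n = 8) and 9.25 to 27.7 CPM (median 14.7, n = 8). *SLC1A5* was a DEG in 0 comparisons by edgeR, had 31.5 to 50.3 CPM (median 41.1, n = 16) in WT and 36 to 60.7 CPM (median 42.4, n = 16) in CF lung before term, and had 43.5 and 93.5 CPM in WT proximal and 47 and 101 CPM in WT distal lung at term. DESeq2 called that distal step and both WT time courses.

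Of the SLC6A carriers of amino acids, *SLC6A20* (chromosome 19, 53443020 to 53491073) rose in WT lung at mid gestation and again at term. *SLC6A20* in WT proximal lung had 2.16 and 1.35 CPM at day 65, 1.7 and 2.39 at day 80 and 23.4 and 18.6 at day 100. *SLC6A20* there then had 20.6 and 14.6 CPM at day 120 and 98.1 and 94.9 at term. *SLC6A20* in WT distal lung had 2.46 and 0.548 CPM at day 65, 0.874 and 1.99 at day 80 and 10.6 and 10.9 at day 100. *SLC6A20* there then had 16.9 and 13.6 CPM at day 120 and 121 and 58.6 at term. WT levels were higher from day 100 and higher again at term, with no overlap between day 80 and day 100 or between day 120 and term. *SLC6A20* in CF proximal lung had 1.75 and 2.26 CPM at day 65, 1.96 and 3.35 at day 80 and 5.32 and 4.18 at day 100. *SLC6A20* there then had 13.1 and 2.95 CPM at day 120 and 10.8 and 23.4 at term. *SLC6A20* in CF distal lung had 1.11 and 0.724 CPM at day 65, 2.41 and 1.48 at day 80 and 4.55 and 3.22 at day 100. *SLC6A20* there then had 13.6 and 7.94 CPM at day 120 and 10.8 and 18.7 at term. The CF libraries lay below the WT libraries of the same region at day 100 and term without overlap, and at day 120 in proximal lung, whereas at days 65 and 80 in both regions and at day 120 in distal lung the genotypes overlapped.

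The WT steps of *SLC6A20* were DEGs in proximal lung at day 100 (log2 fold change 3.33 ± 0.28 (SE), adjusted p = 0.00151) and at term (2.45 ± 0.25, adjusted p = 3.57e-04), and in distal lung at term (2.54 ± 0.57, adjusted p = 0.0131), while the distal step to day 100 was 2.88 ± 0.61, adjusted p = 0.0795. In CF lung edgeR called no step (DESeq2 called the distal one to day 120), and *SLC6A20* passed edgeR's test over time points in CF distal (adjusted p = 0.00134) but not CF proximal lung (adjusted p = 0.113). At term *SLC6A20* was lower in CF than in WT proximal lung (-2.50 ± 0.57, adjusted p = 0.0199) and distal lung (-2.57 ± 0.56, adjusted p = 0.00753). The test of the difference between genotypes in the change from day 120 to term missed the threshold in both regions (-1.36, adjusted p = 0.419; -2.09, adjusted p = 0.0955), although DESeq2 called it in distal lung (-2.05, adjusted p = 0.0458). Both proximal WT steps held without any 1 library. The distal WT step was lost without WT distal day 120 replicate 1 or 2 (adjusted p 0.0725 to 0.0804). The proximal term difference was lost without WT proximal term replicate 1 or 2 or CF proximal term replicate 1 or 2 (adjusted p 0.055 to 0.103). The distal one was lost without WT distal term replicate 1 (adjusted p = 0.0703).

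*SLC6A15*, a carrier of branched-chain amino acids and proline, peaked at day 100 in WT lung. *SLC6A15* in WT proximal lung had 1.79 and 3.84 CPM at day 65, 3.89 and 2.69 at day 80 and 13.6 and 16.7 at day 100. *SLC6A15* there then had 10.9 and 9.17 CPM at day 120 and 3.28 and 4.21 at term. *SLC6A15* in WT distal lung had 3.29 and 4.14 CPM at day 65, 3.25 and 3.31 at day 80 and 16.9 and 16 at day 100. *SLC6A15* there then had 10.4 and 7.94 CPM at day 120 and 2.78 and 3.71 at term. All 4 libraries of day 100, which carry 1 animal label, stood above every other WT library. *SLC6A15* rose at day 100 in WT proximal (2.19 ± 0.40, adjusted p = 0.0284) and distal lung (2.32 ± 0.28, adjusted p = 0.00906) and fell at term (-1.42 ± 0.38, adjusted p = 0.025 and -1.51 ± 0.27, adjusted p = 0.00571). In CF lung edgeR called no step (DESeq2 called the distal step to term), and the 20 libraries lay between 1.22 and 13.3 CPM with the highest mean at day 100 in proximal and day 120 in distal lung. Of these 4 calls the distal fall held without any 1 library, and both rises were lost when the WT day 100 libraries of a region were summed (adjusted p = 0.128 and 0.0975). The proximal rise was lost without either WT proximal library of day 80, 100 or 120 (adjusted p 0.0509 to 0.191). The distal rise was lost without either WT distal library of day 80 or 100 (adjusted p 0.0993 to 0.132). The proximal fall was lost without either WT proximal library of day 120 or term (adjusted p 0.0666 to 0.114).

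*SLC6A9*, the glycine carrier outside neurons, was highest at term in WT lung, with 14.4 and 7.84 CPM at day 120 and 32.3 and 24.8 CPM at term in proximal lung and 12 and 9.91 and 26.5 and 17.1 CPM in distal lung. Both steps of *SLC6A9* were DEGs (1.35 ± 0.36, adjusted p = 0.0246 and 0.97 ± 0.25, adjusted p = 0.0209). The first was lost without WT proximal day 120 replicate 2 or term replicate 1 or 2 (adjusted p 0.0504 to 0.155). The second was lost without WT distal day 120 replicate 1 or 2 or term replicate 1 (adjusted p 0.072 to 0.119). In CF lung at term it had 21 and 7.32 and 19.6 and 7.98 CPM, below every WT term library of the same region except that CF distal replicate 1 exceeded WT distal replicate 2. The other amino acid carriers of SLC6A were barely read. *SLC6A5*, the neuronal glycine carrier, reached at most 0.668 CPM, *SLC6A7*, the brain proline carrier, 0.557 CPM, *SLC6A17* 1.69 CPM and *SLC6A14*, a broad carrier of neutral and cationic amino acids known from airway epithelium, 2.69 CPM. The WT distal step of *SLC6A14* to term was a DEG (3.46 ± 1.07, adjusted p = 0.0434), which was lost without either WT distal library of day 80, 100 or 120 or WT distal term replicate 2 (adjusted p 0.059 to 0.221).

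**Figure D2:**
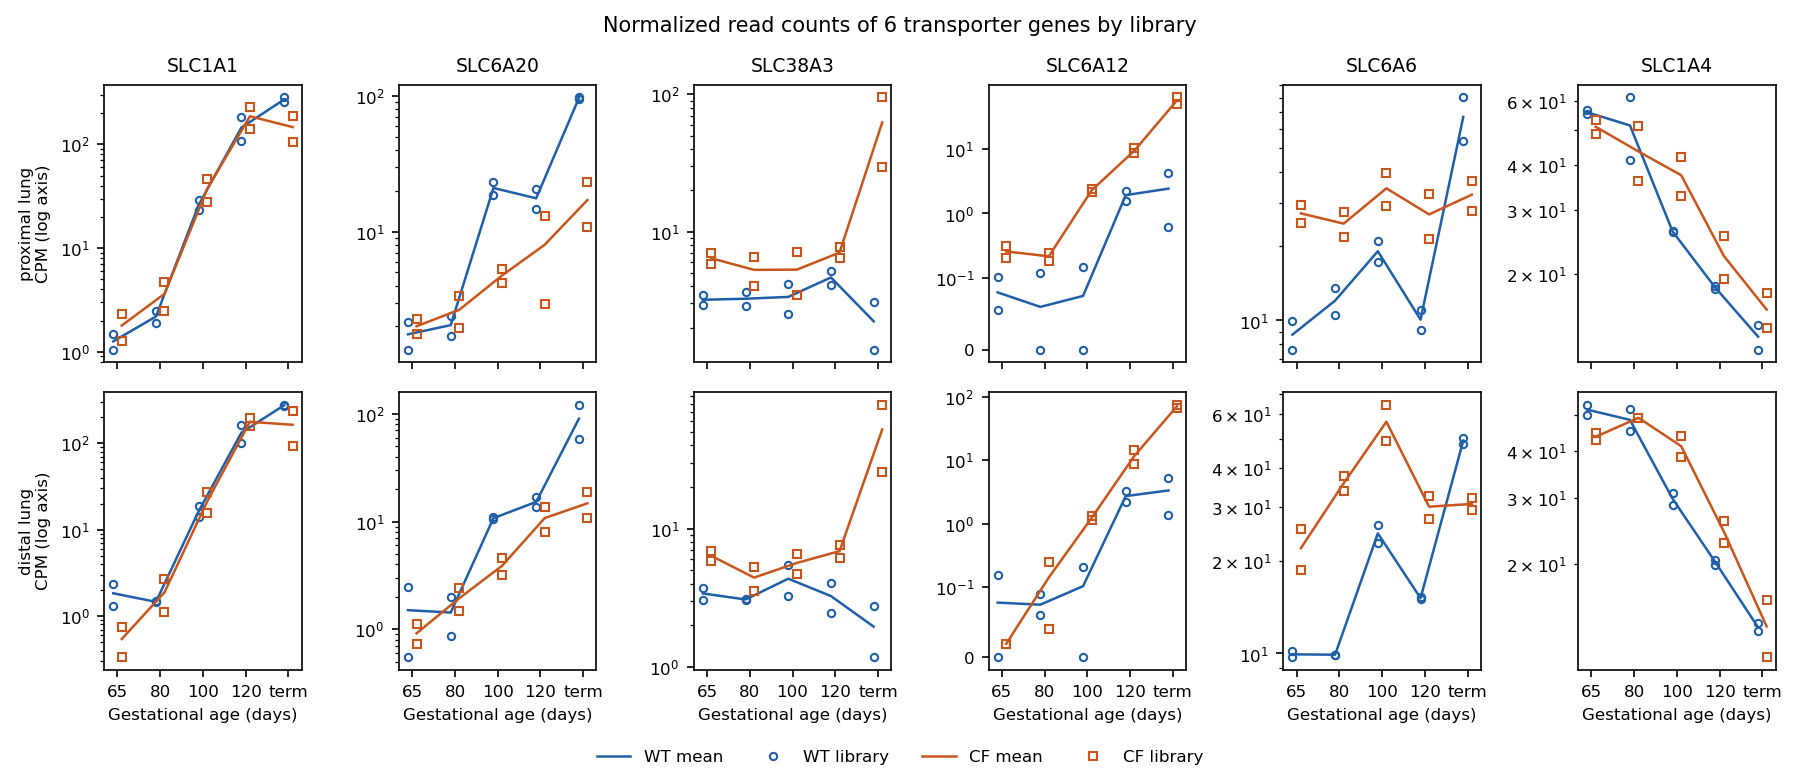
CPM of 6 genes (log axes; for *SLC6A12* the axis is linear near 0) against time in proximal (top) and distal lung (bottom), with WT as blue circles and CF as orange squares. Each point is 1 library and each line joins the means of 2. *SLC1A1* climbs in both genotypes until day 120, *SLC38A3* and *SLC6A12* end higher in CF, *SLC6A20* ends higher in WT, and *SLC6A6* is higher in CF until day 120 and in WT at term.

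Among the carriers of osmolytes and GABA, *SLC6A6*, the taurine carrier (chromosome 19, 57643736 to 57697464), was called in 17 comparisons, more than any other member. *SLC6A6* in WT proximal lung had 9.91 and 7.6 CPM at day 65, 13.5 and 10.6 at day 80 and 17.2 and 20.9 at day 100. *SLC6A6* there then had 11 and 9.17 CPM at day 120 and 53.3 and 80.4 at term. *SLC6A6* in CF proximal lung had 29.4 and 24.9 CPM at day 65, 21.9 and 27.5 at day 80 and 39.6 and 29 at day 100. *SLC6A6* there then had 32.4 and 21.4 CPM at day 120 and 27.9 and 36.8 at term. The order of the genotypes therefore turned between day 120 and term, and they did not overlap at any time point. *SLC6A6* in WT distal lung had 10.2 and 9.71 CPM at day 65, 9.91 and 9.91 at day 80 and 26.3 and 22.9 at day 100. *SLC6A6* there then had 15.3 and 15 CPM at day 120 and 48.1 and 50.4 at term. *SLC6A6* in CF distal lung had 25.3 and 18.7 CPM at day 65, 37.9 and 33.7 at day 80 and 49 and 64.4 at day 100. *SLC6A6* there then had 32.6 and 27.4 CPM at day 120 and 29.2 and 32.1 at term. The order was the same as in proximal lung at all 5 time points, again without overlap.

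Over days 65 to 120 *SLC6A6* was higher in CF lung (log2 fold change 1.23 ± 0.15 (SE), adjusted p = 1.61e-04 in proximal and 1.30 ± 0.09, adjusted p = 4.05e-07 in distal lung), and both calls held without any 1 library. Single days were called in distal lung at day 65 (1.15 ± 0.19, adjusted p = 0.00342), day 80 (1.85 ± 0.19, adjusted p = 4.42e-04), day 100 (1.19 ± 0.19, adjusted p = 0.00283) and day 120 (1.00 ± 0.19, adjusted p = 0.00815), and in proximal lung at day 120 (1.42 ± 0.30, adjusted p = 0.0393). WT *SLC6A6* rose from day 120 to term in proximal (2.73 ± 0.26, adjusted p = 2.78e-04) and distal lung (1.68 ± 0.14, adjusted p = 3.13e-04), and both rises held without any 1 library. At term it was lower in CF distal lung (-0.66 ± 0.18, adjusted p = 0.0268), and the proximal difference was -1.05 ± 0.30, adjusted p = 0.0522. The change from day 120 to term differed between the genotypes in proximal (-2.46 ± 0.42, adjusted p = 0.0108) and distal lung (-1.66 ± 0.26, adjusted p = 0.00245).

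The distal difference in change of *SLC6A6* held without any 1 library. The proximal one was lost without WT proximal day 120 replicate 2 or term replicate 2 (adjusted p 0.0525 to 0.081). Its distal term difference was lost without WT distal term replicate 1 or 2 or CF distal term replicate 1 or 2 (adjusted p 0.0603 to 0.0775). That of distal day 100 was lost without WT distal day 100 replicate 2 or CF distal day 100 replicate 2 (adjusted p 0.0639 to 0.0795). That of distal day 120 was lost without WT distal day 120 replicate 1 or 2 (adjusted p 0.0901 to 0.0966). That of proximal day 120 was lost without either WT proximal library of day 65, 80, 100, 120 or term or either CF proximal library of day 65 or 80 (adjusted p 0.0506 to 0.355). Distal WT *SLC6A6* also rose at day 100 (1.31 ± 0.14, adjusted p = 0.0055) and fell at day 120 (-0.70 ± 0.14, adjusted p = 0.0391). The first was lost without either WT distal library of day 80 or 100 (adjusted p 0.059 to 0.0981). The second was lost without either WT distal library of day 80, 100 or 120 (adjusted p 0.091 to 0.328).

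*SLC6A12*, the betaine and GABA carrier of osmotically stressed cells (chromosome 3, 210896879 to 210916406), rose from near 0 in both genotypes and reached its highest levels in CF lung. *SLC6A12* in CF proximal lung had 0.203 and 0.314 CPM at day 65, 0.248 and 0.186 at day 80 and 2.18 and 2.38 at day 100. *SLC6A12* there then had 10.2 and 8.5 CPM at day 120 and 49.7 and 63.3 at term. *SLC6A12* in CF distal lung had 0.0189 and 0.0196 CPM at day 65, 0.0401 and 0.243 at day 80 and 1.13 and 1.32 at day 100. *SLC6A12* there then had 14.6 and 8.6 CPM at day 120 and 74.5 and 67.1 at term. *SLC6A12* in WT proximal lung had 0.105 and 0.0549 CPM at day 65, 0 and 0.12 at day 80 and 0 and 0.15 at day 100. *SLC6A12* there then had 1.59 and 2.26 CPM at day 120 and 0.619 and 4.23 at term. *SLC6A12* in WT distal lung had 0.156 and 0 CPM at day 65, 0.0603 and 0.0895 at day 80 and 0.206 and 0 at day 100. *SLC6A12* there then had 3.22 and 2.2 CPM at day 120 and 1.37 and 5.28 at term. From day 100 to term both CF libraries stood above both WT libraries at each time point in each region. CF *SLC6A12* rose from day 120 to term in proximal (log2 fold change 2.56 ± 0.36 (SE), adjusted p = 0.0394) and distal lung (2.59 ± 0.50, adjusted p = 0.0106) and from day 100 to day 120 in distal lung (3.28 ± 0.52, adjusted p = 0.0297).

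At term *SLC6A12* was higher in CF in proximal (4.54 ± 0.88, adjusted p = 0.00949) and distal lung (4.43 ± 0.81, adjusted p = 0.00285), and over days 65 to 120 in proximal lung (2.67 ± 0.51, adjusted p = 0.00261; 4.03 without WT proximal day 100 replicate 2). The distal value before term was 1.19 ± 0.63, adjusted p = 0.17, and the difference in change from day 120 to term missed the threshold (2.26, adjusted p = 0.34; 2.31, adjusted p = 0.168). The proximal call before term and the distal calls at term and for the CF step to term held without any 1 library. The proximal term difference was lost without WT proximal term replicate 1 or CF proximal term replicate 2 (adjusted p 0.0528 to 0.0568). The CF proximal step to term was lost without either CF proximal library of day 65, 80 or 100 or CF proximal term replicate 2 (adjusted p 0.0921 to 0.278). The CF distal step to day 120 was lost without CF distal day 100 replicate 1 or 2 or day 120 replicate 1 (adjusted p 0.0661 to 0.318). *SLC6A13*, its neighbour on chromosome 3, stayed at or under 0.194 CPM in all 40 libraries. *SLC6A8*, the creatine carrier, rose at term in WT distal lung (0.71 ± 0.22, adjusted p = 0.044), which was lost without either WT distal library of day 80, 100 or 120 or WT distal term replicate 2 (adjusted p 0.0757 to 0.278). It had 11.9 to 26.1 CPM (median 20.1, n = 16) in WT and 14.4 to 28.8 CPM (median 22.2, n = 16) in CF lung before term, and *SLC6A11* was under 0.4 CPM throughout.

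*SLC6A2*, which takes noradrenaline out of the lung circulation, rose late in WT lung. *SLC6A2* in WT proximal lung had 0.316 and 0.384 CPM at day 65, 0.151 and 0.18 at day 80 and 0.397 and 0.0751 at day 100. *SLC6A2* there then had 2.76 and 1.99 CPM at day 120 and 11 and 8.1 at term. *SLC6A2* in WT distal lung had 0.571 and 0.274 CPM at day 65, 0.964 and 0.626 at day 80 and 0.343 and 0.595 at day 100. *SLC6A2* there then had 1.69 and 2.1 CPM at day 120 and 10.9 and 7.03 at term. All 4 WT term libraries exceeded every earlier WT library. *SLC6A2* in CF proximal lung had 0.221 and 0.203 CPM at day 65, 0.0382 and 0.726 at day 80 and 0.671 and 0.151 at day 100. *SLC6A2* there then had 2.14 and 0 CPM at day 120 and 3.77 and 1.29 at term. *SLC6A2* in CF distal lung had 0.0189 and 0 CPM at day 65, 0.161 and 0.0187 at day 80 and 0.468 and 0.558 at day 100. *SLC6A2* there then had 3.18 and 0.71 CPM at day 120 and 4.01 and 1.45 at term. CF term libraries lay below WT term libraries in both regions. WT *SLC6A2* rose at day 120 in proximal lung (log2 fold change 3.28 ± 0.59 (SE), adjusted p = 0.0233; 4.94 without WT proximal day 100 replicate 1) and at term in proximal (2.00 ± 0.51, adjusted p = 0.0205) and distal lung (2.22 ± 0.47, adjusted p = 0.011). It was lower in CF distal lung before term (-2.05 ± 0.48, adjusted p = 0.0044), which held without any 1 library, and at distal day 65 (-5.23 ± 1.19, adjusted p = 0.021), where CF had 0.0189 and 0 CPM. At term the genotype difference was -1.91 (adjusted p = 0.513) in proximal and -1.69 (adjusted p = 0.164) in distal lung. The proximal day 120 step was lost without WT proximal day 100 replicate 2 or day 120 replicate 1 or 2 (adjusted p 0.0591 to 0.127). The proximal step to term was lost without either WT proximal library of day 120 or term (adjusted p 0.0547 to 0.135). The distal one was lost without WT distal day 120 replicate 1 or 2 (adjusted p 0.0523 to 0.0807). The distal day 65 difference was lost without WT distal day 65 replicate 1 or CF distal day 65 replicate 1 or 2 (adjusted p 0.0644 to 0.132).

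*SLC6A4*, the serotonin carrier of lung endothelium, passed the test over time points in WT proximal (adjusted p = 0.0417), WT distal (adjusted p = 0.0406) and CF distal lung (adjusted p = 0.0362), with its highest mean at day 120 (36.7 and 16.9 CPM in WT proximal, 30.7 and 22 in WT distal and 42.1 and 10.6 in CF distal lung), and edgeR called no single step of it (DESeq2 called the WT proximal step to day 120). The WT proximal call was lost without either WT proximal library of day 65 or 100, WT proximal day 80 replicate 1 or day 120 replicate 1 (adjusted p 0.0624 to 0.188). The WT distal one was lost without either WT distal library of day 65, 80, 100 or 120 (adjusted p 0.0575 to 0.18). The CF distal one was lost without either CF distal library of day 65, 80 or 100 or CF distal day 120 replicate 1 (adjusted p 0.0545 to 0.11). Its CF replicates spread widely at day 120 in proximal lung, at 31.4 and 2.12 CPM. *SLC6A3*, the dopamine carrier, stayed at or under 0.43 CPM.

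Of the heteromeric carriers, the heavy chain *SLC3A2* was evenly read before term, with 53.1 to 73.2 CPM (median 64.8, n = 16) in WT and 52.8 to 91.5 CPM (median 63.2, n = 16) in CF lung, and lay between 97.0 and 129 CPM in the 4 WT and between 98.8 and 109 CPM in the 4 CF term libraries. WT *SLC3A2* rose from day 120 to term in proximal (log2 fold change 0.62 ± 0.14 (SE), adjusted p = 0.0109) and distal lung (0.68 ± 0.16, adjusted p = 0.016), and at term CF against WT was 0.02 ± 0.22, adjusted p = 0.977 and -0.06 ± 0.20, adjusted p = 0.887. Both rises fell under the fold limit once a trend on gene length was removed (0.50 and 0.54). The proximal rise was lost without WT proximal day 120 replicate 2 or term replicate 2 (adjusted p 0.0563 to 0.0863). The distal one was lost without WT distal day 120 replicate 1 or 2 or term replicate 2 (adjusted p 0.0802 to 0.095). *SLC3A1*, the other heavy chain, stayed at or under 0.75 CPM.

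*SLC7A7* (chromosome 7, 21604963 to 21638566), the light chain that exports cationic amino acids in exchange for neutral ones, climbed with age. *SLC7A7* in WT proximal lung had 25.4 and 28.2 CPM at day 65, 32.7 and 32.9 at day 80 and 47.5 and 43.3 at day 100. *SLC7A7* there then had 74 and 103 CPM at day 120 and 168 and 154 at term. *SLC7A7* in WT distal lung had 26.2 and 34 CPM at day 65, 33.3 and 29.5 at day 80 and 42.9 and 48.2 at day 100. *SLC7A7* there then had 80.1 and 83.2 CPM at day 120 and 168 and 133 at term. Means were higher at each time point from day 80 on, with day 120 above day 100 and term above day 120 without overlap. *SLC7A7* in CF proximal lung had 29.5 and 25.3 CPM at day 65, 37.7 and 29.9 at day 80 and 46 and 55.5 at day 100. *SLC7A7* there then had 38.1 and 69.8 CPM at day 120 and 61.6 and 80.7 at term. *SLC7A7* in CF distal lung had 32.6 and 36.9 CPM at day 65, 29.97 and 31.1 at day 80 and 45.4 and 43.3 at day 100. *SLC7A7* there then had 39.1 and 54.1 CPM at day 120 and 85.8 and 90.6 at term. CF term libraries reached 61.6 to 90.6 CPM against 133 to 168 CPM in WT.

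The WT rises of *SLC7A7* were DEGs at day 120 (log2 fold change 0.98 ± 0.15 (SE), adjusted p = 0.0127 in proximal and 0.84 ± 0.16, adjusted p = 0.0335 in distal lung) and at term (0.86 ± 0.15, adjusted p = 0.00371 and 0.86 ± 0.16, adjusted p = 0.0064), and the CF rise at term in distal lung (0.92 ± 0.19, adjusted p = 0.0139). *SLC7A7* was lower in CF than in WT at term in proximal (-1.18 ± 0.27, adjusted p = 0.0195) and distal lung (-0.74 ± 0.18, adjusted p = 0.0148) and at distal day 120 (-0.80 ± 0.18, adjusted p = 0.0237), and the change from day 120 to term did not pass the test of a difference between genotypes (-0.46, adjusted p = 0.603; 0.06, adjusted p = 0.93). The proximal WT rise at term held without any 1 library. Its distal counterpart was lost without WT distal day 120 replicate 1 (adjusted p = 0.0588). The proximal term difference was lost without WT proximal term replicate 1 or 2 or CF proximal term replicate 1 or 2 (adjusted p 0.053 to 0.108). Its distal counterpart was lost without WT distal term replicate 1 (adjusted p = 0.0951). The CF rise was lost without CF distal day 120 replicate 1 or term replicate 2 (adjusted p 0.0529 to 0.0708). The rises at day 120 were lost with the WT day 100 libraries summed (adjusted p = 0.101 and 0.301). The proximal one was lost without WT proximal day 100 replicate 1 or 2 or day 120 replicate 2 (adjusted p 0.0536 to 0.119). Its distal counterpart was lost without either WT distal library of day 80, 100 or 120 (adjusted p 0.071 to 0.302). The distal day 120 difference was lost without WT distal day 120 replicate 1 or 2 or CF distal day 120 replicate 1 (adjusted p 0.114 to 0.118).

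*SLC7A6*, the close relative of *SLC7A7*, went down at term while *SLC7A7* went up. *SLC7A6* in WT proximal lung had 5.33 and 5.33 CPM at day 100, 8.02 and 8.15 at day 120 and 2.34 and 2.12 at term. *SLC7A6* in WT distal lung had 5.8 and 4.56 CPM at day 100, 8.71 and 5.97 at day 120 and 2.47 and 1.17 at term. *SLC7A6* in CF distal lung had 8.75 and 8.15 CPM at day 100, 13.6 and 3.31 at day 120 and 1.57 and 1.64 at term. The term libraries were the lowest of each of these courses, except that CF distal day 65 replicate 2, at 1.43 CPM, lay below those of CF distal lung. *SLC7A6* fell at term in WT proximal (log2 fold change -1.86 ± 0.24 (SE), adjusted p = 0.00111), WT distal (-2.03 ± 0.48, adjusted p = 0.0164) and CF distal lung (-2.43 ± 0.67, adjusted p = 0.0325). The first of these held without any 1 library. The WT distal fall was lost without WT distal day 120 replicate 1 or term replicate 2 (adjusted p 0.063 to 0.0923). The CF distal fall was lost without either CF distal library of day 100 or term or CF distal day 120 replicate 1 (adjusted p 0.0563 to 0.243).

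*SLC7A5*, the light chain LAT1 that brings leucine and other large neutral amino acids into dividing cells, also ended low. *SLC7A5* in CF distal lung had 4.46 and 1.16 CPM at day 65, 6.83 and 5.76 at day 80 and 4.6 and 4.05 at day 100. *SLC7A5* there then had 4.57 and 1.85 CPM at day 120 and 0.559 and 0.279 at term. *SLC7A5* in WT distal lung had 5.32 and 2.17 CPM at day 65, 5.45 and 3.89 at day 80 and 1.85 and 2.06 at day 100. *SLC7A5* there then had 2.56 and 1.7 CPM at day 120 and 2.6 and 1.5 at term. CF term libraries, at 0.188 to 0.559 CPM in both regions, lay below every WT library of the course, whose term values were 1.5 to 2.6 CPM. CF distal *SLC7A5* fell at term (log2 fold change -2.95 ± 0.71 (SE), adjusted p = 0.0213) and was then lower than in WT (-2.25 ± 0.64, adjusted p = 0.0297), while the proximal difference was -2.51 ± 0.99, adjusted p = 0.166. The fall was lost without CF distal day 120 replicate 1 or term replicate 2 (adjusted p 0.112 to 0.118). The genotype difference was lost without WT distal term replicate 1 or CF distal term replicate 2 (adjusted p 0.149 to 0.199). *SLC7A11*, the light chain of the cystine and glutamate exchanger xCT, was under 0.6 CPM in 38 libraries and reached 6.44 CPM in WT proximal and 2.19 CPM in WT distal term replicate 2. WT *SLC7A11* was a DEG at term in proximal lung (3.90, adjusted p = 0.0374) and, from counts of 0 and 2 at day 120 that leave its size uncertain, in distal lung (5.29, adjusted p = 0.0241). The first was lost without either WT proximal library of day 80, 100 or 120 or WT proximal term replicate 2 (adjusted p 0.0507 to 0.715). The second was lost without WT distal day 120 replicate 1 or 2 or term replicate 2 (adjusted p 0.0747 to 0.195). *SLC7A8*, *SLC7A9*, *SLC7A10* and *SLC7A13* were DEGs in 0 comparisons by edgeR and did not exceed 3.13 CPM.

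The cationic carriers of SLC7A, which bring in arginine and lysine, gave few calls. *SLC7A1* in CF distal lung had 7.47 and 1.81 CPM at day 65, 13.9 and 8.76 at day 80 and 9.9 and 9.66 at day 100. *SLC7A1* there then had 11.2 and 3.46 CPM at day 120 and 0.896 and 1.81 at term. It fell at term there (log2 fold change -2.47 ± 0.75 (SE), adjusted p = 0.0433), where both term libraries lay below both of day 120, and the difference from WT at term was -2.23 ± 0.73, adjusted p = 0.0523. The fall was lost without either CF distal library of day 80, 100 or term or CF distal day 120 replicate 1 (adjusted p 0.062 to 0.268). *SLC7A2*, which responds to inflammation in many tissues, lay between 9.48 and 27.0 CPM over the 40 libraries and fell at term in WT proximal (-0.69 ± 0.21, adjusted p = 0.0397) and distal lung (-0.85 ± 0.26, adjusted p = 0.0439). Both falls missed the thresholds once the trend on gene length was removed (-0.53, adjusted p = 0.0868 and -0.57, adjusted p = 0.0834). The proximal fall was lost without either WT proximal library of day 65 or 120, WT proximal day 100 replicate 1 or term replicate 2 (adjusted p 0.0504 to 0.226). Its distal counterpart was lost without either WT distal library of day 80, 100 or 120 or WT distal term replicate 2 (adjusted p 0.0661 to 0.19). *SLC7A3* fell at term in WT distal lung (adjusted p = 0.0219), which was lost without WT distal day 120 replicate 1 or 2 or term replicate 2 (adjusted p 0.0613 to 0.098). It had 0 counts in both WT distal term libraries and 0.38 and 0.0669 CPM in the CF ones. *SLC7A4* was higher in CF proximal lung before term (1.39 ± 0.37, adjusted p = 0.0177), at 0.673 to 4.29 CPM (median 2.35, n = 8) against 0.578 to 1.47 CPM (median 1.0, n = 8), and this was lost without WT proximal day 80 replicate 2 (adjusted p = 0.0506).

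Within SLC38A, *SLC38A3* (chromosome 19, 50095554 to 50102438), which carries glutamine, histidine and asparagine, set CF term lung apart. *SLC38A3* in CF proximal lung had 6.96 and 5.83 CPM at day 65, 4.0 and 6.53 at day 80 and 3.48 and 7.09 at day 100. *SLC38A3* there then had 6.38 and 7.69 CPM at day 120 and 29.4 and 95.5 at term. *SLC38A3* in CF distal lung had 6.9 and 5.82 CPM at day 65, 3.57 and 5.29 at day 80 and 4.73 and 6.59 at day 100. *SLC38A3* there then had 7.63 and 6.13 CPM at day 120 and 25.6 and 78.4 at term. All 4 CF term libraries stood above every other library, with replicate 2 well above replicate 1 in both regions. *SLC38A3* in WT proximal lung had 2.95 and 3.43 CPM at day 65, 2.87 and 3.62 at day 80 and 2.52 and 4.17 at day 100. *SLC38A3* there then had 4.08 and 5.19 CPM at day 120 and 1.38 and 3.07 at term. *SLC38A3* in WT distal lung had 3.06 and 3.76 CPM at day 65, 3.07 and 3.09 at day 80 and 5.45 and 3.25 at day 100. *SLC38A3* there then had 2.48 and 4.04 CPM at day 120 and 1.18 and 2.75 at term. WT *SLC38A3* stayed between 1.18 and 5.45 CPM, and at term its replicate 1 was the lowest library of each course.

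At term *SLC38A3* was higher in CF in proximal (log2 fold change 4.81 ± 0.62 (SE), adjusted p = 7.13e-04) and distal lung (4.75 ± 0.56, adjusted p = 1.82e-04), and both calls held without any 1 library. CF distal *SLC38A3* rose from day 120 to term (2.90 ± 0.49, adjusted p = 0.00733; 1.89 without CF distal term replicate 2, still a DEG), and the CF proximal step was 3.11 ± 0.61, adjusted p = 0.0821. The change from day 120 to term differed between the genotypes in proximal (4.21 ± 0.78, adjusted p = 0.015) and distal lung (3.66 ± 0.71, adjusted p = 0.00687); the distal test held without any 1 library. The proximal one was lost without WT proximal day 120 replicate 2, term replicate 1 or CF proximal term replicate 2 (adjusted p 0.0661 to 0.0789). Before term *SLC38A3* was higher in CF distal lung (0.72 ± 0.24, adjusted p = 0.0364). This was lost without either WT distal library of day 65 or 80, WT distal day 100 replicate 2, day 120 replicate 1, CF distal day 65 replicate 1, day 80 replicate 2, day 100 replicate 2 or day 120 replicate 1 (adjusted p 0.0509 to 0.095). The proximal value was 0.74 ± 0.27, adjusted p = 0.0666.

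*SLC38A2*, of the highest mean RPKM, lay between 169.7 and 359.8 CPM in all 40 libraries, and its differences between CF and WT at term were -0.47 ± 0.24, adjusted p = 0.308 in proximal and -0.33 ± 0.16, adjusted p = 0.166 in distal lung. *SLC38A10* rose in WT distal lung at term (log2 fold change 0.65 ± 0.12 (SE), adjusted p = 0.00612), to 120.2 and 110.1 from 66.2 and 78.5 CPM, and its change differed from that in CF distal lung (-0.76 ± 0.23, adjusted p = 0.0488), where it went from 81.2 and 101 to 95.4 and 73.3 CPM. The rise was lost without WT distal day 120 replicate 1 (adjusted p = 0.063). The difference in change was lost without either WT distal library of day 65, 80, 100, 120 or term, either CF distal library of day 80 or 100, CF distal day 120 replicate 2 or term replicate 2 (adjusted p 0.0645 to 0.178). Before term both CF libraries exceeded both WT libraries of *SLC38A10*, *SLC6A6* and *SLC43A1* in all 8 pairs of region and day, which is 5.26% of members against 5.9% of all genes. *SLC38A7*, a lysosomal glutamine carrier, rose at term in WT proximal lung (0.70 ± 0.18, adjusted p = 0.0228), which was lost without either WT proximal library of day 120 or term (adjusted p 0.0685 to 0.13). *SLC38A9*, the arginine sensor of the lysosome, lay between 19.2 and 47.7 CPM with no step called by edgeR. *SLC38A1*, *SLC38A5*, *SLC38A6* and *SLC38A8* were DEGs in 0 comparisons by edgeR.

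Of the SLC36A genes *SLC36A4*, a high-affinity carrier of proline and tryptophan, was read most, and the others did not exceed 15.5 CPM in any library. *SLC36A4* at term had 40.6 and 122 CPM in CF proximal, 32.9 and 117 in CF distal, 34.9 and 38.4 in WT proximal and 29.1 and 22.9 in WT distal lung. CF term replicate 2 was the highest library in both regions, and replicate 1 lay above both WT libraries by less. *SLC36A4* was higher in CF distal lung at term (log2 fold change 1.56 ± 0.38 (SE), adjusted p = 0.0141), which was lost without WT distal term replicate 1 or 2 or CF distal term replicate 2 (adjusted p 0.052 to 0.36), and the proximal value was 1.15 ± 0.40, adjusted p = 0.113.

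All 3 SLC43A genes were read in every library. *SLC43A1*, a carrier of leucine and other large neutral amino acids, was higher in CF lung until day 120. *SLC43A1* in CF proximal lung had 58.7 and 54.5 CPM at day 65, 68 and 53.7 at day 80 and 52.2 and 86.8 at day 100. *SLC43A1* there then had 40.8 and 95.9 CPM at day 120 and 35.2 and 43.3 at term. *SLC43A1* in CF distal lung had 75.5 and 63.2 CPM at day 65, 54.4 and 62.7 at day 80 and 54.9 and 63.4 at day 100. *SLC43A1* there then had 37.8 and 63.7 CPM at day 120 and 38.4 and 36.6 at term. *SLC43A1* in WT proximal lung had 25.3 and 32.7 CPM at day 65, 34.5 and 26.1 at day 80 and 17.9 and 31.9 at day 100. *SLC43A1* there then had 25.3 and 30.2 CPM at day 120 and 31.4 and 32.9 at term. *SLC43A1* in WT distal lung had 21.4 and 29 CPM at day 65, 26.8 and 23.5 at day 80 and 25.8 and 22.4 at day 100. *SLC43A1* there then had 30.2 and 36.7 CPM at day 120 and 39.6 and 47.7 at term. The genotypes did not overlap before term in either region, whereas at term CF libraries lay just above WT in proximal and just below in distal lung. Over days 65 to 120 *SLC43A1* was higher in CF in proximal (log2 fold change 1.19 ± 0.19 (SE), adjusted p = 9.14e-04) and distal lung (1.14 ± 0.12, adjusted p = 7.54e-06), and both held without any 1 library. Of single days, distal days 65 (1.45 ± 0.23, adjusted p = 0.00331), 80 (1.21 ± 0.23, adjusted p = 0.00905) and 100 (1.28 ± 0.23, adjusted p = 0.00728) were called. That of day 65 was lost without WT distal day 65 replicate 1 (adjusted p = 0.055). That of day 80 was lost without WT distal day 80 replicate 1 or 2 or CF distal day 80 replicate 2 (adjusted p 0.0689 to 0.133). That of day 100 was lost without WT distal day 100 replicate 1 or 2 or CF distal day 100 replicate 2 (adjusted p 0.0764 to 0.121).

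*SLC43A2*, its relative with an overlapping substrate range, parted by genotype at term. *SLC43A2* in WT proximal lung had 18.1 and 12.1 CPM at day 65, 13.6 and 13.5 at day 80 and 7.66 and 9.57 at day 100. *SLC43A2* there then had 8.37 and 11.2 CPM at day 120 and 27.6 and 19.2 at term. *SLC43A2* in WT distal lung had 13.3 and 12.9 CPM at day 65, 12.3 and 15.9 at day 80 and 6.52 and 6.99 at day 100. *SLC43A2* there then had 7.01 and 10.3 CPM at day 120 and 27.6 and 15.8 at term. *SLC43A2* in CF proximal lung had 14.1 and 20.1 CPM at day 65, 8.64 and 12.6 at day 80 and 18.6 and 10.5 at day 100. *SLC43A2* there then had 12.6 and 1.71 CPM at day 120 and 6.94 and 4.71 at term. *SLC43A2* in CF distal lung had 15 and 8.73 CPM at day 65, 14.5 and 13.3 at day 80 and 11.5 and 11.6 at day 100. *SLC43A2* there then had 10.4 and 11.1 CPM at day 120 and 7.22 and 3.75 at term. The 4 WT term libraries (15.8 to 27.6 CPM) stood above the 4 CF term libraries (3.75 to 7.22 CPM). WT *SLC43A2* rose at term in proximal (log2 fold change 1.26 ± 0.27 (SE), adjusted p = 0.00959) and distal lung (1.29 ± 0.30, adjusted p = 0.0148; 0.85 without WT distal term replicate 1), CF was lower at term in distal lung (-1.95 ± 0.35, adjusted p = 0.00247), which held without any 1 library, and the proximal value was -2.01 ± 0.64, adjusted p = 0.0857. The distal change from day 120 to term differed between genotypes (-2.27 ± 0.48, adjusted p = 0.0113). This was lost without WT distal day 120 replicate 1 or term replicate 1 (adjusted p 0.0524 to 0.0618). The proximal rise was lost without WT proximal day 120 replicate 1 or term replicate 1 (adjusted p 0.0535 to 0.0727). Its distal counterpart was lost without WT distal day 120 replicate 1 (adjusted p = 0.11). *SLC43A3*, the nucleobase carrier, rose at term in WT proximal (1.56 ± 0.33, adjusted p = 0.00964; 0.90 without WT proximal term replicate 2) and distal lung (1.05 ± 0.29, adjusted p = 0.0301), from 18.6 and 19.9 to 36.3 and 77.3 CPM and from 20.8 and 22.5 to 35 and 55.8 CPM. The first was lost without WT proximal day 120 replicate 1 or 2 (adjusted p 0.06 to 0.0616). The second was lost without either WT distal library of day 80, 100 or 120 or WT distal term replicate 2 (adjusted p 0.053 to 0.19).

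Taken over days 65 to 120, CF against WT called 7 of 56 members tested in proximal lung (12.5%; all genes 14.1%) and 6 of 53 in distal lung (11.3%; 18.0%), shares near or below those of all genes. In proximal lung 6 were higher in CF (10.9% of all genes) and 1 lower (3.21%), and in distal lung 5 (11.5%) and 1 (6.48%). *SLC6A6*, *SLC43A1* and *SLC1A3* were higher in CF in both regions, which share their animals. *SLC1A3* gave 0.71 ± 0.21, adjusted p = 0.0251 in proximal and 0.89 ± 0.16, adjusted p = 7.97e-04 in distal lung, and at distal day 80 1.34 ± 0.33, adjusted p = 0.0279. Its proximal call was lost without WT proximal day 65 replicate 1, day 80 replicate 2, day 100 replicate 2, day 120 replicate 1, CF proximal day 65 replicate 1, day 80 replicate 2 or day 100 replicate 2 (adjusted p 0.0579 to 0.0648). The distal day 80 call was lost without WT distal day 80 replicate 1 or 2 or CF distal day 80 replicate 1 or 2 (adjusted p 0.0614 to 0.196). Calls on barely read genes were *SLC6A5* (higher, distal, 2.69 ± 0.62, adjusted p = 0.00489), *SLC6A7* (higher, proximal, adjusted p = 0.0304) and *SLC1A2* (lower, proximal, -2.19 ± 0.57, adjusted p = 0.0156). That of *SLC6A7* was lost without either WT proximal library of day 65 or 120, WT proximal day 100 replicate 1, CF proximal day 65 replicate 2, day 80 replicate 1 or day 100 replicate 2 (adjusted p 0.052 to 1). That of *SLC1A2* was lost without WT proximal day 100 replicate 1 (adjusted p = 0.0529). The proximal count was 12 without CF proximal day 120 replicate 1.

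By day, distal lung had 3, 3, 2 and 2 members called at days 65, 80, 100 and 120 (5.05%, 5.75%, 5.07% and 4.22% of all genes), all of them *SLC6A6*, *SLC43A1*, *SLC1A3*, *SLC6A2* or *SLC7A7*. Proximal lung had 0 at days 65, 80 and 100 by edgeR and 1 at day 120, *SLC6A6* (0.167%, 0.0885%, 0.383% and 1.35% of all genes). On those 4 days an unadjusted p under 0.05 was reached by 3, 5, 4 and 6 members (all genes 12.4%, 10.6%, 13.0% and 17.1%), and DESeq2 called 1, 0, 3 and 3. The sum over proximal days was 18 without CF proximal day 120 replicate 1, 6 without its replicate 2 and 0 without 12 of the other libraries.

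At term 4 of 56 members were DEGs between CF and WT in proximal lung (7.14%; all genes 6.08%) and 9 of 53 in distal lung (17.0%; 14.4%). All 4 proximal genes were called in distal lung with the same direction: *SLC38A3* and *SLC6A12* were higher and *SLC6A20* and *SLC7A7* lower in CF. Distal lung added *SLC36A4* and *SLC7A3* as higher and *SLC6A6*, *SLC43A2* and *SLC7A5* as lower, so that 4 were higher (7.16% of all genes) and 5 lower (7.23%). The median log2 fold change of the members tested was -0.43 in proximal and -0.36 in distal lung, against -0.03 and 0 over all genes. Both CF libraries lay below both WT libraries in both regions for 19 of 57 members (33.3%; all genes 19.9%) and above them for 5 (8.77%; all genes 17.2%), namely *SLC36A4*, *SLC38A3*, *SLC3A1*, *SLC6A12* and *SLC6A16*. The proximal count was 9 without CF proximal day 120 replicate 1 or 2, 2 without WT proximal term replicate 1 or 2 and 1 without CF proximal term replicate 2, and the distal count was 4 without WT distal term replicate 1.

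**Figure D3:**
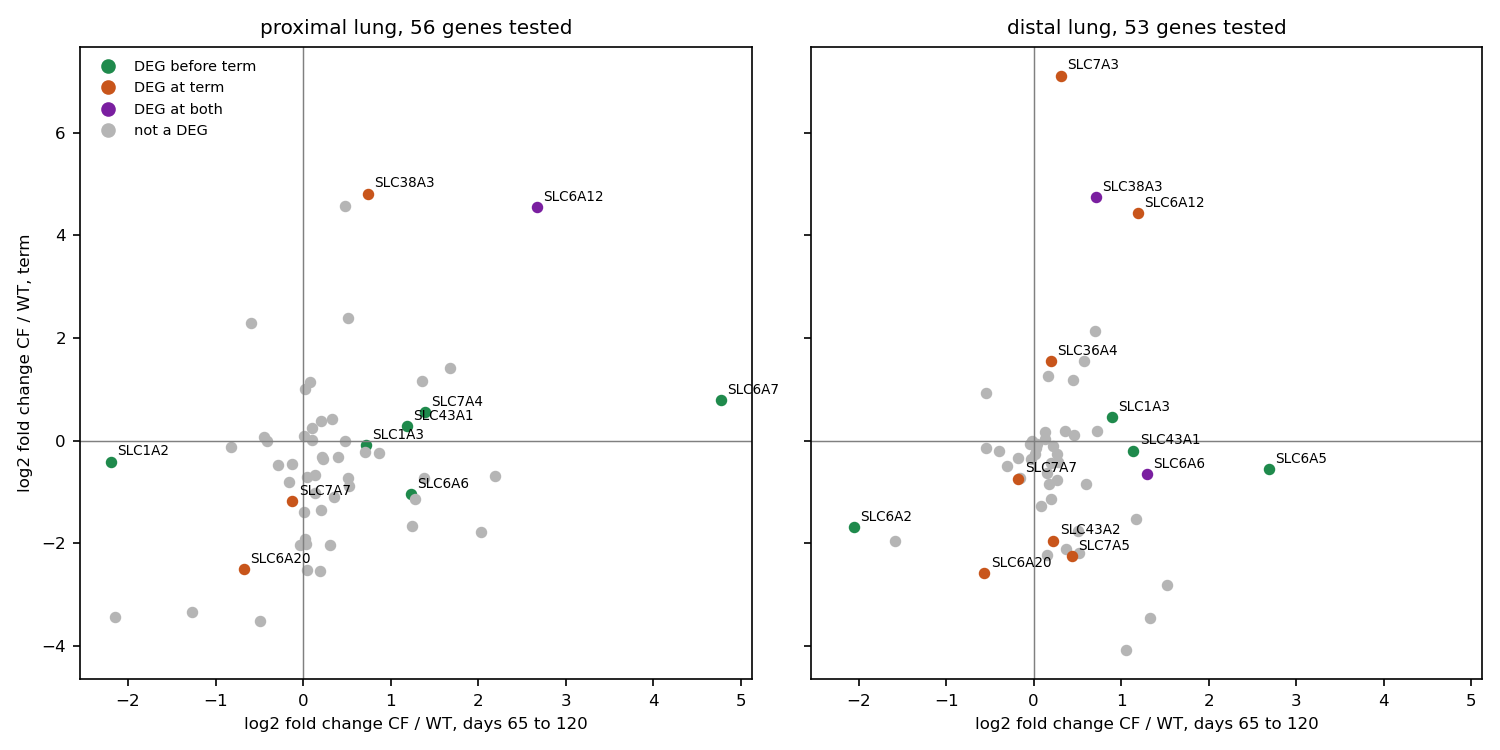
Log2 fold change of CF against WT over days 65 to 120 (horizontal) and at term (vertical) for the 56 members tested in proximal and the 53 in distal lung, with DEGs coloured and named. *SLC38A3* and *SLC6A12* lie high on the term axis in both panels, *SLC6A20* lies low, and *SLC6A6* and *SLC43A1* lie to the right.

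The change from day 120 to term differed between the genotypes for 2 members in proximal lung, *SLC38A3* and *SLC6A6* (3.57%; all genes 1.78%), and for 4 in distal lung, these 2 with *SLC43A2* and *SLC38A10* (7.55%; all genes 9.31%). The change was more positive in CF for *SLC38A3* and more positive in WT for the others. The proximal count was 8 without CF proximal day 120 replicate 1, 4 without CF proximal term replicate 1, 1 without CF proximal term replicate 2 or WT proximal term replicate 1 or 2, and 0 without WT proximal day 120 replicate 2. The distal count was 9 without CF distal term replicate 1, 7 without CF distal day 120 replicate 2, and 2 without WT distal day 120 or term replicate 1.

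**Figure D4:**
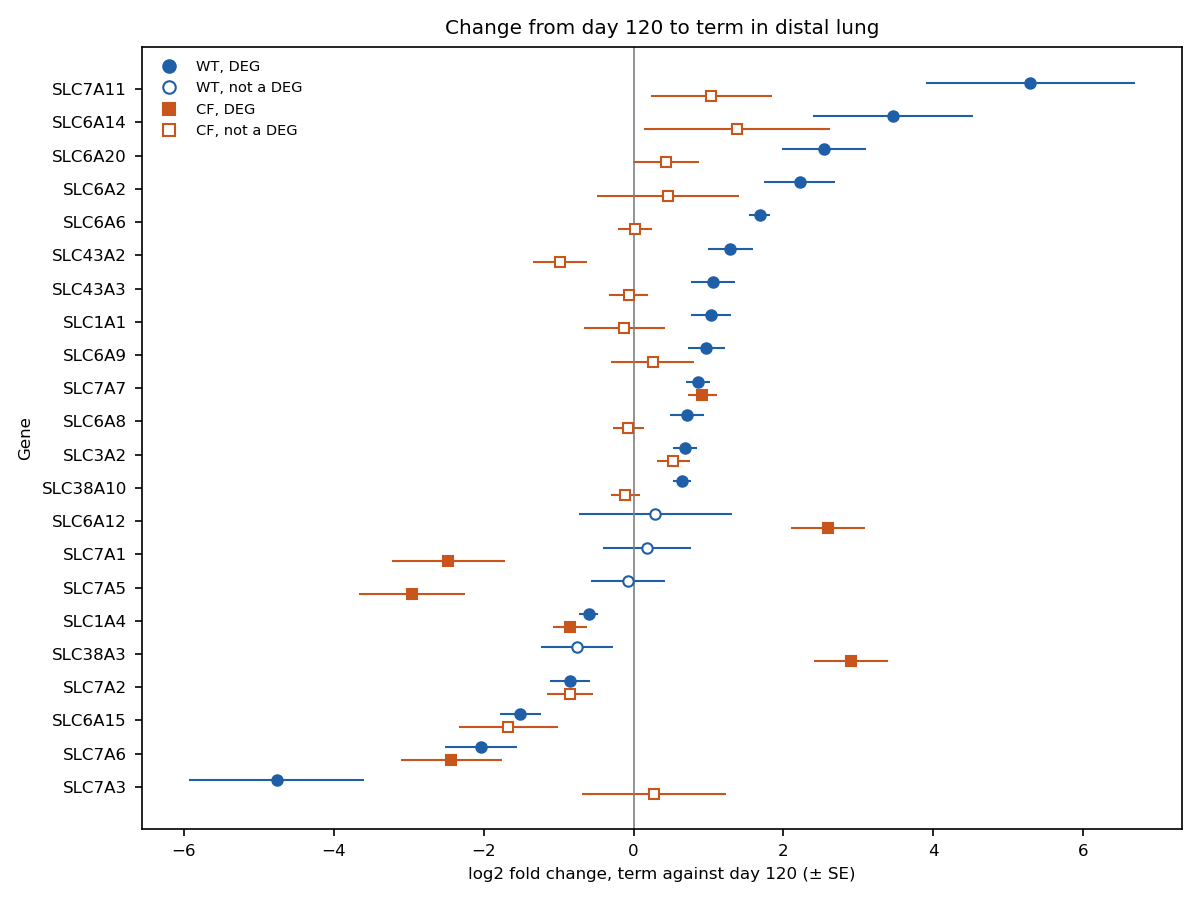
Log2 fold change from day 120 to term in distal lung for 22 members, with bars of 1 SE, in WT (blue) and CF (orange); filled points are DEGs. *SLC6A20*, *SLC6A6* and *SLC43A2* rise in WT, *SLC38A3* and *SLC6A12* rise in CF, and *SLC7A7* rises and *SLC7A6* falls in both.

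Proximal and distal lung of the same animal labels were close. With the animal (genotype, day and replicate number, also for the 2 WT day 100 pairs of 1 label) as a block, 0 of 57 members were DEGs between the regions before term (0.0289% of all genes) or at term (0.0%) by edgeR and 0 by DESeq2, and 3 and 4 had an unadjusted p under 0.05 (all genes 4.23% and 4.84%). The log2 fold change was within 0.5 of 0 for 48 members before term and 43 at term. Differences between replicates ran against each other in the regions of CF day 65 (correlation -0.474), CF day 80 (-0.341) and WT day 100 (-0.158). The pairing by animal is therefore uncertain there. With the CF distal replicates of days 65 and 80 exchanged, 0 members were DEGs between the regions before term or at term. *SLC1A1* came closest, with a proximal excess of 0.56 ± 0.07, adjusted p = 0.00564 before term, under the fold limit. It passed that limit without both libraries of WT day 65, WT day 80, CF day 65 or CF day 80 replicate 1, or WT day 100 or CF day 120 replicate 2 (0.58 to 0.61).

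Genes around the transporters were read from lists of amino acid response genes (26), mTORC1 sensors (24 of 26 in the table), glutathione synthesis (9) and other amino acid or peptide carriers (18 of 22). At term, 2.6% of all genes were higher and 3.48% lower in CF proximal and 7.16% and 7.23% in CF distal lung. Of the response genes, 4 were higher and 3 lower in proximal and 6 and 2 in distal lung. *DDIT3*, a stress factor induced through ATF4, was higher (1.601, adjusted p = 0.0316; 1.56, adjusted p = 0.00504), as was *PYCR1* of proline synthesis (1.81, adjusted p = 0.00175; 1.30, adjusted p = 0.00288). *PHGDH* and *PSAT1*, which open serine synthesis, were lower (-1.55, adjusted p = 0.0145; -1.80, adjusted p = 3.16e-04, and -2.45, adjusted p = 0.0422; -1.46, adjusted p = 0.0445). The list thus moved both ways: *ATF4* itself was 1.25, adjusted p = 0.056 in proximal and 1.15, adjusted p = 0.0186 in distal lung, and the list's median was -0.04 and 0.04.

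Against the same shares of all genes, the mTORC1 list (24 tested) had 0 higher and 3 lower DEGs in CF proximal and 1 and 3 in CF distal lung at term. *MTOR*, the kinase itself, was lower (-0.94, adjusted p = 0.0324; -0.997, adjusted p = 0.00728), and so was the leucine-responsive *SESN1* (-0.97, adjusted p = 0.0101; -0.75, adjusted p = 0.00709). Glutathione synthesis (9 tested) had 0 higher and 1 lower, and 1 and 1, with *GSR*, which regenerates glutathione, lower in both (-1.39, adjusted p = 0.0119; -0.97, adjusted p = 0.00634). Among the other carriers, 1 was higher and 1 lower of 15 tested in proximal and 1 and 4 in distal lung: *SLC15A4*, a lysosomal carrier of histidine and peptides, was higher (0.94, adjusted p = 0.0418; 0.84, adjusted p = 0.0221) and *CTNS*, the lysosomal cystine exporter, lower (-1.16, adjusted p = 0.0183; -1.06, adjusted p = 0.0127). In WT lung from day 120 to term the glutathione list had 4 higher and 0 lower in each region (all genes 11.3% and 8.78% in proximal, 11.8% and 10.5% in distal lung).

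Library makeup moved with several members. Each gene's log2 level in a library was taken as its deviation from its mean over the 40 libraries. The median deviation of 2794 long genes (6000 bases or more) minus that of 4026 short ones (under 2000) was then taken per library. This difference ran from -0.23 to 0.23 in WT libraries before term, -0.997 to 0.881 in CF libraries before term, -0.89 to -0.22 in WT and -0.76 to -0.33 in CF term libraries. Across the 40 libraries, which share genotype and depth groups, *SLC7A6* followed this difference (r = 0.895), as did *SLC38A1* (0.868), *SLC36A1* (0.816), *SLC7A1* (0.767) and *SLC7A5* (0.755), and *SLC3A2* ran against it (-0.80). In WT libraries alone these 6 genes had r of 0.889, 0.737, 0.0557, 0.284, 0.427 and -0.836. In CF libraries alone they had 0.955, 0.949, 0.96, 0.905, 0.849 and -0.879. For *SLC36A1*, *SLC7A1* and *SLC7A5* the relation was thus mainly one of CF libraries. With r above 0.7 for 5 of 28 members with a mean log2 CPM of 1 or more and below -0.7 for 1, against 9.59% and 11.4% of 13710 genes, the difference is one many genes follow. The part of library makeup in the term values of *SLC7A1*, *SLC7A5*, *SLC7A6* and *SLC3A2* was not tested beyond removing the length trend.

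**Figure D5:**
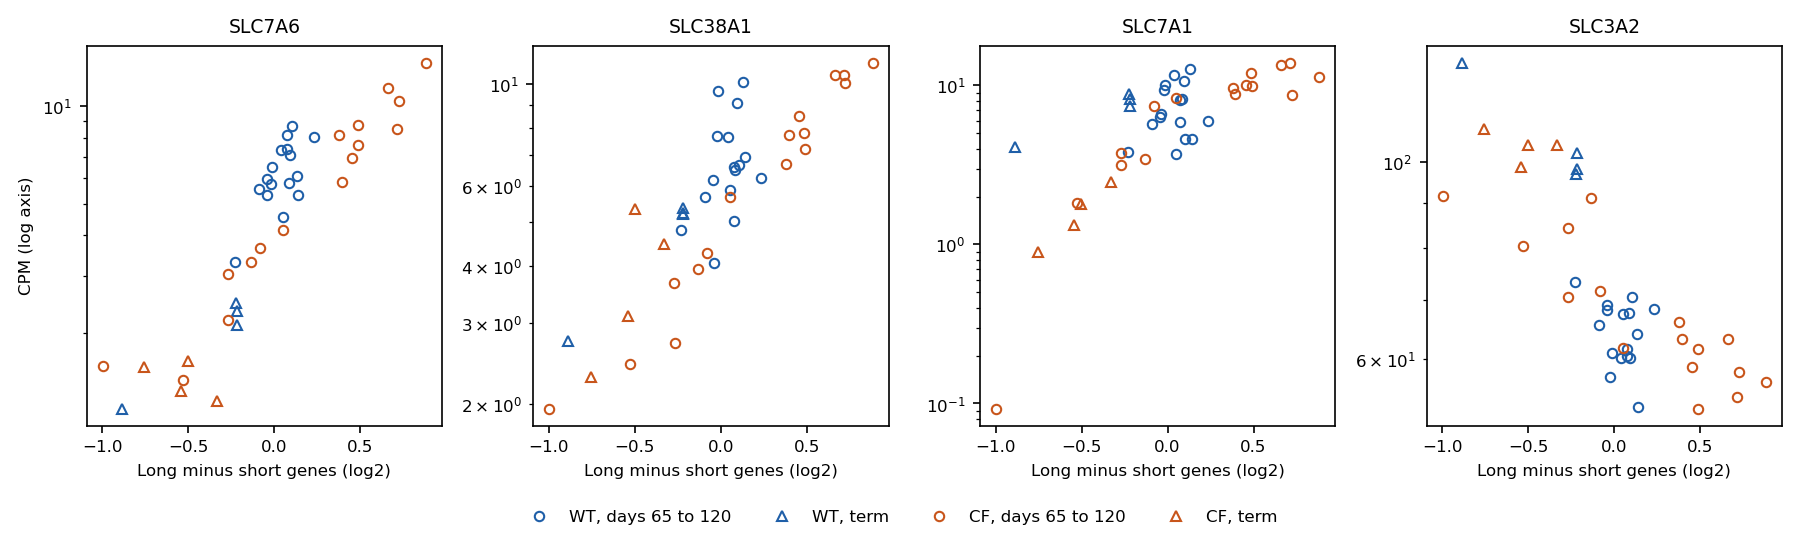
CPM (log axis) of *SLC7A6*, *SLC38A1*, *SLC7A1* and *SLC3A2* in each of the 40 libraries against the median log2 deviation of long genes minus that of short genes, coloured by genotype and stage. The first 3 rise with it and *SLC3A2* falls, and the spread along the horizontal axis is widest for CF libraries before term, from -0.997 to 0.881.

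Markers of other cell types moved at term too. Over both regions, the macrophage and myeloid markers summed to between 409.7 and 879 CPM in the 4 WT and between 74.5 and 119.8 CPM in the 4 CF term libraries, against 41.5 to 86.3 CPM in WT and 48.4 to 104 CPM in CF lung before term. Alveolar type 1 markers summed to between 4742 and 5617 CPM in WT and between 1603 and 3158 CPM in CF term lung, and cell cycle genes to between 175 and 322 CPM and between 66.7 and 90.5 CPM. Smooth muscle markers turned, from 621 to 1498 CPM in CF and 282 to 756 CPM in WT lung before term to 271 to 539.7 CPM and 577 to 959 CPM at term. At term these 4 sums lay lower in CF, as did *SLC7A7*, *SLC43A2*, *SLC6A20*, *SLC7A5* and *SLC6A6*. Erythroid markers (3 of 7 with a row) lay higher in CF term lung (3.78 to 7.85 against 0.67 to 2.77 CPM), as did *SLC38A3* and *SLC6A12*. With the regions pooled, endothelial (1465 to 1829 against 1104 to 1698 CPM) and lymphocyte sums (15.1 to 71.3 against 17.1 to 29.2 CPM) overlapped. Their ranges within a region are not given here, so a difference within a region is not excluded. Before term the smooth muscle sums reached higher in CF but overlapped those of WT, and *SLC6A6* and *SLC43A1* were higher in CF. The part of these cells in those results was not tested.

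Over all comparisons, 36 of the 57 genes (63.2%; all 24478 genes 56.1%) were called by edgeR at least once and 21 never, most of the latter among the barely read SLC6A, SLC7A and SLC36A genes. Of the 165 calls, 64 held whichever 1 library was left out. These were 36 of 63 over time points, 11 of 59 steps, 8 of 13 before term, 2 of 11 on single days, 5 of 13 at term and 2 of 6 for the difference in change. Where a library left out was 1 of a pair, the lone library was taken to vary like the other groups.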

How the data were processed

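RNA was extracted with TRIzol, and oligo-dT libraries were read as 100-base paired ends on a NovaSeq. Per the labels, the authors aligned reads to Oar_v4.0 with STAR 2.6 (the study's methods name another version) and counted them per gene with featureCounts 1.6.3; the deposited values are raw read counts, unfiltered (24478 genes, 40 libraries, 0 columns left unassigned). The strand setting is not given in the sources used here.

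Genes were kept by filterByExpr (minimum count 10, total 15), scaled by TMM and tested with edgeR 4.0.16 quasi-likelihood in R 4.3.3, and p-values were adjusted by Benjamini-Hochberg over every gene in the fit. The 10 libraries of a time course, the 20 of a region (for genotype) or all 40 with genotype, day and replicate number as a block (for region) entered a fit. CPM used TMM over all 40 libraries and RPKM divided by gene model length. DEGs had to meet limits of 0.05 on the adjusted p and 0.58 on the size of the log2 fold change; the study's limit of 0.001 was an alternative. The region pairing follows the animal labels, although differences between replicates did not match between the regions in every pair. The rule for named genes took *SLC1A1*, *SLC38A3*, *SLC6A20* and, per comparison, up to 6 DEGs with the largest fold change at an average log2 CPM of 0 or more, some given in part or as ranges. Genes named outside that rule were chosen after their values were seen. Members and lists were chosen with earlier results of these data known. One member gene is not reported by itself here. Fits were tested on simulated data. Depth sets the counting error and bears on which genes pass the filter.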

Additional observations from a re-analysis of the deposited data

Results flagged for a closer look

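For 6 results, the change from day 120 to term differed between CF and WT lung by the interaction test in edgeR. *SLC38A3* had a difference in log2 fold change (CF minus WT) of 4.21 in proximal and 3.66 in distal lung, with all 4 CF term libraries above every other library. *SLC6A6* had -2.46 in proximal and -1.66 in distal lung, where the order of the genotypes turned. *SLC43A2* had -2.27 and *SLC38A10* -0.76, both in distal lung. No cause was tested for these differences.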

How the results depend on the processing

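Of 452 counts of members compared across settings, 352 stayed within 1.5 times the reported count, and of values of called members and of *SLC1A1*, *SLC38A3* and *SLC6A20* 4959 kept their call, 668 lost it, 50 gained one and 0 reversed. With the limit of 0.001 (share of all genes in parentheses), counts were 3 (distal, 6.86%) and 2 (proximal, 2.5%) before term, 1 (0.121%) and 0 (0.0%) by day, 1 (1.25%) and 1 (0.339%) at term, 0 (0.189%) and 0 (0.0442%) for the difference in change, 9 (7.48%, against 20% of members), 7 (10.6%), 2 (3.59%) and 1 (0.0254%) over time points (WT distal, WT proximal, CF distal, CF proximal) and 1 (0.294%), 2 (0.554%), 0 (0.0871%) and 0 (0.0%) over steps. DESeq2 gave 16 (10.1%) and 7 (4.56%) by day, 11 at proximal term (12.2%), 11 for the distal difference in change (16%), 28 (52.1%) and 12 (20.5%) over time points in CF distal and proximal lung and 21 (10.2%) and 9 (2.57%) over their steps. With the WT day 100 libraries summed, proximal days gave 0 (0.205%) and WT distal steps 15 (4.24%). Removing the length trend gave 4 (1.64%) on proximal days. Bias-adjusted quasi-likelihood gave 15 (19.2%) at distal term and 8 (7.7%) over time points in CF proximal lung. A fit pooling the courses gave 11 (17.4%) and 12 (17.3%) over time points in CF and WT proximal lung and 18 (8.11%), 4 (1.6%) and 6 (1.71%) over CF distal, CF proximal and WT proximal steps. Replicate numbers did not pair samples across time or genotype (5 of 10 genotype correlations above 0.1, from -0.25 to 0.40); with a replicate block, proximal days gave 0 (0.29%).

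Leaving out 1 library gave 5 to 7 (distal) and 5 to 12 (proximal) before term, 8 to 13 and 0 to 18 by day, 4 to 13 and 1 to 9 at term, 2 to 9 and 0 to 8 for the difference in change, 0 to 1 between regions before term, 16 to 25, 15 to 20, 10 to 24 and 2 to 14 over time points (WT distal, WT proximal, CF distal, CF proximal) and 7 to 34, 8 to 21, 2 to 14 and 0 to 7 over steps. WT distal steps gave 7 and 11 without day 120 replicate 1 and 2, 15 and 16 without day 100 replicate 1 and 2, and 17 and 16 without day 80 replicate 1 and 2. WT proximal steps gave 12 and 8 without day 120 replicate 1 and 2 and 14 without term replicate 2. CF distal steps gave 4 without day 100 replicate 1 or 2 and 2 without day 120 replicate 1, and CF proximal steps 7 without day 120 replicate 1, 2 without term replicate 1 and 0 without term replicate 2 or any library of days 65 to 100. The cause was not tested.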
